A study of Mus musculus with 2 samples.

Results

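The genes described here make, break down and respond to cyclic AMP (cAMP) in mouse brain: adenylyl cyclases, phosphodiesterases, the subunits of protein kinase A (PKA) with their inhibitor and anchors, the transcription factors and coactivator that act downstream, and Epac2. They were chosen by name, 34 symbols in all. Of these, 33 matched a row by gene identifier among 43346 genes, and Pde2a, whose transcripts stand under another identifier, is given apart. The mean level reached 1 TPM (a transcript level per length, as a share of a fixed total) in all 33 matched genes, and both libraries reached it in 32; Adcy6 passed on the strength of replicate 2 alone.

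The samples were 2 poly(A) RNA libraries from the whole-tissue label "brain" of 1 adult male mouse of the inbred strain C57BL/6J, aged 10 weeks, with no treatment and no second group. The labels call the libraries technical replicates of the same biological replicate, and date replicate 2 after the publication they name. Whether both were made from the same extract or piece of tissue, and which brain regions were taken, was not stated in the labels. The comparison available is therefore replicate 2 against replicate 1. It has no replicate check and its spread holds no difference between animals, so no p-value is given.

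Cyclic AMP is made from ATP by adenylyl cyclases, which stimulatory G proteins switch on and inhibitory G proteins or calcium can modulate, and it is removed by phosphodiesterases. In the resting PKA holoenzyme a dimer of regulatory subunits holds the catalytic subunits inactive, and cAMP binding to the regulatory subunits frees them to phosphorylate their targets. In neurons these include ion channels, receptors and the transcription factor CREB, and the pathway is known for its part in synaptic plasticity and in the response of striatal neurons to dopamine.

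The gene tables held 18302506 expected counts in replicate 1 and 17828479 in replicate 2. The 33 genes took 0.475% of these counts in replicate 1 (exact Clopper-Pearson 95% interval 0.472 to 0.478%) and 0.613% in replicate 2 (0.609 to 0.616%). Mitochondrial genes with their nuclear copies held 63.2% of all TPM in replicate 1 and 29.1% in replicate 2, which leaves less of the fixed TPM total to other genes in replicate 1. The difference between libraries is therefore given as log2 of (TPM + 1) in replicate 2 over replicate 1, less the median of that ratio (0.88) over the 14229 genes that averaged 1 TPM or more, the expressed genes. This is called the centred log2 ratio below, it understates the change of low genes, and a gene is called higher or lower in replicate 2 at 2-fold on that scale. Transcript GC content, the share of G and C bases, moves with the ratio over all genes: the median centred log2 ratio was -1.19 in the 2697 expressed genes of 40 to 45% GC and 2.15 in the 2754 of 55 to 60% GC. It is printed beside the called genes of the set, and its part in their differences was not tested.

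By the mean of both libraries the regulatory subunits Prkar1a and Prkar1b, the catalytic subunit Prkacb, Epac2 (Rapgef4) and the inhibitor Pkia had the highest levels per length of the cAMP genes. In replicate 2 Pde1b also stood above Pkia. The TPM of the whole set summed to 1609 in replicate 1 and 2666 in replicate 2. In bulk tissue such levels do not separate cell number from content: fewer cells of a type and less RNA per cell cannot be told apart. In uncentred TPM 24 genes were higher in replicate 2 and 9 were lower. Without centring the median log2 ratio was 0.52 over the 33 genes and 0.88 over all expressed genes, so most expressed genes were higher too. On the centred scale 9 of 33 (27.3%) were called higher in replicate 2, beside 30.4% of all expressed genes, and 8 of 33 (24.2%) were called lower, beside 22.1% of all. Both shares lie near the background, and the other 16 genes were called neither way. The median centred log2 ratio was -0.36 over the 33 genes, where that of all expressed genes is 0 by construction, and the median absolute value was 1.01 against 1.06 for all.

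The genes called higher were Crtc1, Pde1b, Pde4a, Adcy5, Adcy6, Adcy3, Adcy9, Prkaca and Prkar1b, and those called lower were Pde7a, Pkia, Prkar2b, Pde3b, Pde8a, Prkar2a, Creb1 and Pde1a. The first 9 had a transcript GC content of 54.5 to 59.5% and the other 8 one of 39.5 to 46.9%, so these ranges do not overlap. The lower calls depend on the centre: without centring, 0 of the 33 genes were called lower (background 1.65%) and 12 higher (background 47.7%). With a smooth trend on GC content removed, 1 gene, Crtc1, was called higher (background 10.3%) and 0 lower (background 7.43%).

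**Figure D1:**
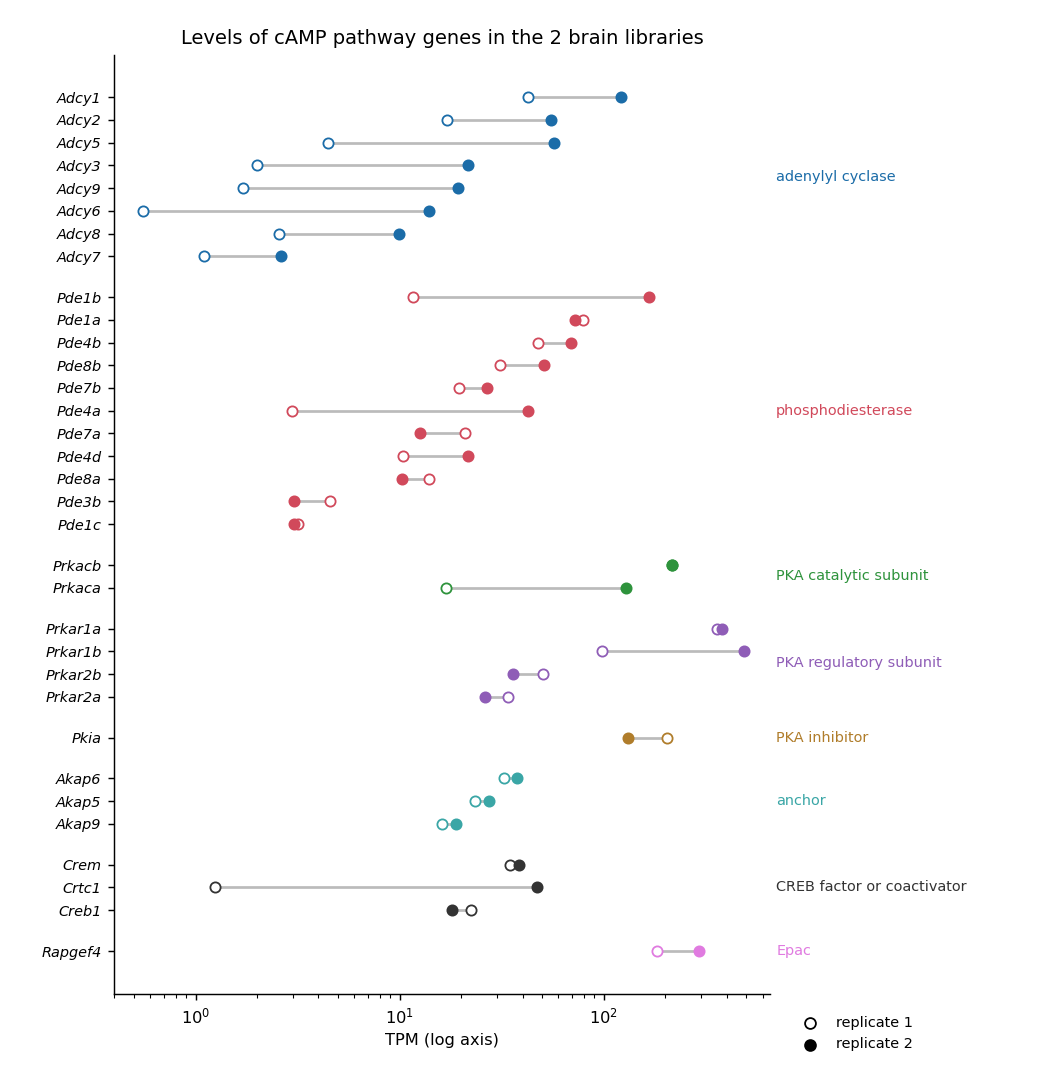
Level of each of the 33 genes in TPM on a log axis, by family, with replicate 1 as an open and replicate 2 as a filled circle and a grey line between them. The long lines belong to Crtc1, Pde1b, Pde4a, Adcy5, Adcy6 and the other genes called higher in replicate 2, while Prkacb (215 and 216 TPM) and Prkar1a (359.5 and 381 TPM) are nearly the same in both.

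Adenylyl cyclases were led by Adcy1 and all 8 stood higher in replicate 2 in uncentred TPM, where the median log2 ratio of all expressed genes was 0.88. Adcy1, a calcium- and calmodulin-stimulated cyclase of neurons (chromosome 11, 7063489 to 7178506, GRCm38), stood at 42.6 TPM in replicate 1 and 121 TPM in replicate 2, a mean of 82.0 ± 55.7 (SD, n = 2). It rested on 7391 and 15859 counts. Its replicate 2 over replicate 1 ratio of TPM was 2.85, with a 95% interval of 2.77 to 2.93 that, like every such interval below, covers counting error only. On the centred scale this became 0.61, under the 2-fold call, and Adcy1 was the most abundant cyclase in both libraries.

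Adcy2, activated by G protein beta-gamma subunits together with the stimulatory alpha subunit, stood at 17.1 and 54.9 TPM in replicates 1 and 2. Adcy8, the other calcium-stimulated cyclase, stood at 2.57 and 9.88 TPM. Adcy7, abundant in blood and immune cells, was at 1.10 and 2.62 TPM and had the lowest level of the family in replicate 2. None of these 3 was called: the centred log2 ratios were 0.75 for Adcy2, 0.73 for Adcy8 and -0.10 for Adcy7.

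The 4 cyclases called higher in replicate 2 were Adcy3, Adcy5, Adcy6 and Adcy9, against 0 called lower, where the shares over all expressed genes are 30.4% and 22.1%. Adcy5, the calcium-inhibited cyclase known for its high expression in striatum (chromosome 16, 35154877 to 35305738), stood at 4.47 TPM on 438 counts in replicate 1 and at 57.3 TPM on 4234 counts in replicate 2. Its TPM ratio was 12.8 (11.6 to 14.2), its centred log2 ratio 2.53 and its GC content 59.5%, the highest of the 33 genes. Adcy6, the close paralog of Adcy5 (chromosome 15, 98589973 to 98610076), stood at 0.55 TPM on 46 counts and at 13.9 TPM on 875 counts.

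That is a TPM ratio of 25.2 (18.7 to 34.7) and a centred log2 ratio of 2.38 at 55.4% GC. Adcy6 was the lowest of the 8 cyclases in replicate 1 and the sixth in replicate 2. Adcy3, known from olfactory neurons and neuronal primary cilia, stood at 2.00 and 21.6 TPM (centred log2 ratio 2.03, 55.2% GC). Adcy9, a widely expressed cyclase that forskolin activates poorly, was at 1.71 and 19.4 TPM (2.03, 54.5% GC).

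The order within the family therefore differed below the leader. The family summed to 72.1 TPM in replicate 1 and 301 TPM in replicate 2, and Adcy1 held 59.1% and 40.3% of that. Adcy2 was 3.81 times Adcy5 in replicate 1 and 0.959 times in replicate 2. The calcium-stimulated pair Adcy1 and Adcy8 summed to 45.2 and 131 TPM, and the calcium-inhibited pair Adcy5 and Adcy6 to 5.02 and 71.1 TPM. All 8 cyclases had a GC content above the all-gene median of 49.9%, from 50.8% in Adcy8 to 59.5% in Adcy5.

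Phosphodiesterases, which hydrolyse cAMP or cyclic GMP or both, numbered 11 among the matched genes, of which 2 were called higher in replicate 2 and 4 lower, beside 30.4% and 22.1% of all expressed genes. The calcium- and calmodulin-activated PDE1 genes show the contrast most clearly. Pde1b, known for its expression in striatum (chromosome 15, 103503034 to 103530052), stood at 11.7 TPM on 465 counts in replicate 1 and at 167 TPM on 5006 counts in replicate 2, a mean of 89.3 ± 110 (SD, n = 2). The TPM ratio of Pde1b was 14.3 (13.0 to 15.7), its centred log2 ratio 2.84 and its GC content 56.2%.

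Pde1a, of 41.5% GC, stood at 79.1 and 72.6 TPM with a centred log2 ratio of -1.01, just past the call. Pde1a was thus 6.77 times Pde1b in replicate 1 and 0.435 times in replicate 2, and the most abundant phosphodiesterase was Pde1a in replicate 1 and Pde1b in replicate 2. Pde1c, the remaining gene of the subfamily, was low in both at 3.19 and 3.02 TPM (centred log2 ratio -0.94).

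The PDE4 genes are cAMP-specific and the targets of rolipram. Pde4b was the most abundant of them in both libraries, at 47.7 and 68.9 TPM (centred log2 ratio -0.36). Pde4a (chromosome 9, 21165714 to 21213248) stood at 2.97 TPM on 189 counts in replicate 1 and at 42.7 TPM on 1666 counts in replicate 2. The TPM ratio of Pde4a was 14.4 (12.4 to 16.8), its centred log2 ratio 2.58 and its GC content 56.8%.

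Pde4b exceeded Pde4a 16.1-fold in replicate 1 and 1.61-fold in replicate 2. Pde4d, a PDE4 gene with many promoters and isoforms, stood at 10.3 and 21.6 TPM (centred log2 ratio 0.11).

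The 4 phosphodiesterases called lower were Pde1a, Pde3b, Pde7a and Pde8a. Pde7a, a cAMP-specific enzyme insensitive to rolipram (chromosome 3, 19223108 to 19311322), stood at 20.9 TPM on 717 counts in replicate 1 and 12.6 TPM on 471 counts in replicate 2. With a TPM ratio of 0.600 (0.533 to 0.675) and a centred log2 ratio of -1.58 it had the lowest value of the 33 genes, at 43.8% GC. Its paralog Pde7b stood at 19.6 and 26.8 TPM (centred log2 ratio -0.45), so that Pde7a was 1.07 times Pde7b in replicate 1 and 0.468 times in replicate 2.

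Pde3b, the cyclic GMP-inhibited enzyme known from insulin and leptin action (chromosome 7, 114415281 to 114539251), was at 4.58 TPM on 389 counts and 3.05 TPM on 192 counts. Its TPM ratio was 0.666 (0.557 to 0.794), its centred log2 ratio -1.34 and its GC content 43.4%. Pde8a, a high-affinity cAMP enzyme (chromosome 7, 81213596 to 81334533), stood at 13.9 TPM on 366 counts and 10.3 TPM on 402 counts.

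The TPM ratio of Pde8a was 0.739 (0.640 to 0.854) and its centred log2 ratio -1.28 at 46.9% GC, yet its counts were higher in replicate 2. With counts scaled by library totals its log2 ratio was 0.17, the opposite direction. The shortest transcript of Pde8a, described further on, was listed at 0 TPM in replicate 2. Its paralog Pde8b stood at 31.1 and 50.8 TPM (centred log2 ratio -0.19). The summed PDE7 level, 40.5 and 39.4 TPM, moved less than the summed PDE1 level, 94.0 and 242 TPM, or the summed PDE4 level, 61.0 and 133 TPM.

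Pde2a, the cyclic GMP-stimulated phosphodiesterase, was not among the matched rows. The row that holds its deposited transcripts (ENSMUSG00000030653.12) covers 3 of them, of which the later annotation assigns 2 to Pde2a and 1, ENSMUST00000084894.9, to Gm45837. That row stood at 5.26 TPM on 304 counts in replicate 1 and 144 TPM on 6281 counts in replicate 2, and had a centred log2 ratio of 3.65 and a GC content of 55.1%. The transcript assigned to Gm45837 held 100% of it in replicate 1 and 88.4% in replicate 2, and those assigned to Pde2a stood at 0 and 16.7 TPM. The row enters none of the counts above.

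The catalytic subunits of PKA differed from each other. Prkacb, the beta subunit (chromosome 3, 146729574 to 146812990), stood at 215 TPM on 12656 counts in replicate 1 and 216 TPM on 9411 counts in replicate 2, a mean of 215.6 ± 0.30 (SD, n = 2). Its TPM ratio was 1.00 (0.975 to 1.03), which on the centred scale is -0.88. Prkaca, the alpha subunit, stood at 16.8 TPM on 509 counts and 128 TPM on 2928 counts.

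Prkaca was called higher, with a TPM ratio of 7.64 (6.95 to 8.41) and a centred log2 ratio of 1.98. Prkacb was the more abundant subunit in both libraries, 12.8-fold in replicate 1 and 1.68-fold in replicate 2. The GC content was 45.0% for Prkacb and 54.9% for Prkaca.

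Regulatory subunits, the cAMP sensors of the kinase, were dominated by the type I genes. Prkar1a, the widely expressed type I alpha subunit (chromosome 11, 109649405 to 109669656), stood at 359.5 TPM on 16045 counts in replicate 1 and 381 TPM on 12794 counts in replicate 2, a mean of 370.5 ± 15.5 (SD, n = 2). Its TPM ratio was 1.06 (1.04 to 1.09) and its centred log2 ratio -0.80. Prkar1b, the type I beta subunit found mainly in nervous tissue, stood at 97.7 TPM on 1902 counts and 486 TPM on 11938 counts (TPM ratio 4.97, interval 4.74 to 5.22).

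The centred log2 ratio of Prkar1b was 1.42, a call of higher at 55.5% GC. Prkar1a exceeded Prkar1b 3.68-fold in replicate 1 and was 0.785 times Prkar1b in replicate 2, so the first place changed hands. Of all 33 genes Prkar1a ranked first in replicate 1 and Prkar1b in replicate 2.

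Both type II genes were called lower in TPM. Prkar2b, the beta subunit prominent in brain and fat (chromosome 12, 31958476 to 32061296), stood at 50.7 TPM on 2152 counts in replicate 1 and 36.1 TPM on 1211 counts in replicate 2. The TPM ratio of Prkar2b was 0.711 (0.663 to 0.764), its centred log2 ratio -1.36 and its GC content 41.5%. Prkar2a stood at 33.8 and 26.2 TPM on nearly equal counts of 1128 and 1090, with a centred log2 ratio of -1.24 at 46.2% GC. It was not called in counts, where its log2 ratio was -0.62 with TMM, -0.57 with DESeq2 size factors and -0.012 with library totals.

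Prkar2b exceeded Prkar2a 1.499-fold in replicate 1 and 1.38-fold in replicate 2, a ratio that stayed close between libraries. The summed type I level exceeded the summed type II level 5.41-fold in replicate 1 and 13.9-fold in replicate 2. All regulatory subunits together stood at 2.33 times the catalytic subunits in replicate 1 and 2.70 times in replicate 2.

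For Prkar1a and Prkacb the transcript tables list several start sites, and the 120 bases before 2 transcript starts of each gene are shown because these starts take different shares in the libraries. The bases are those of RefSeq on GRCm38.p6, written 5′ to 3′ on the strand of the gene, and the starts are those of GENCODE M21. Capitals mark the full cAMP response element TGACGTCA, the palindrome that CREB binds, or else its core CGTCA. The core was searched on both strands, where it also reads TGACG, and it is contained in the full element.
Prkar1a, ENSMUST00000049527.6, chr11:109650801-109650920, plus strand: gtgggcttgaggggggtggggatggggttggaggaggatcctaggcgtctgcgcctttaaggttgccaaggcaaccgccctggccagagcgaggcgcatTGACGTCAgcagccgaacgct
Prkar1a, ENSMUST00000106677.3, chr11:109649285-109649404, plus strand: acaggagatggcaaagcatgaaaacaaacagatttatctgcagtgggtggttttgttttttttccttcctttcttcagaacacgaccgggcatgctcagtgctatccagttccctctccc
Prkacb, ENSMUST00000102515.5, chr3:146812961-146813080, minus strand: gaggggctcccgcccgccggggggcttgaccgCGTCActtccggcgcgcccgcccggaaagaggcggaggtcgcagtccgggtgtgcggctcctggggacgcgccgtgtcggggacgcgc
Prkacb, ENSMUST00000106137.3, chr3:146770262-146770381, minus strand: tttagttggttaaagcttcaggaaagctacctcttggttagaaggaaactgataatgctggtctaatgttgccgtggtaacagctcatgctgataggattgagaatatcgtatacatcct

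In Prkar1a the full element ends 13 bases before the start of ENSMUST00000049527.6, and the sequence is 65.0% GC against 45.8% before the other start. The transcript behind the element held 96.5% of Prkar1a in replicate 1 (347 TPM) and 62.0% in replicate 2 (236 TPM). The other transcript held 0.65% (2.34 TPM) and 33.4% (127 TPM). In Prkacb the transcript behind the 79.2% GC sequence held 78.2% and 57.5% of the gene, and that behind the 40.0% GC sequence 18.6% and 28.2%. In both genes the leading transcript was the same in the libraries and held less of the gene in replicate 2.

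RefSeq windows of 300 bases, from 250 before to 50 after a start, were found for 27 of the matched genes, 59 windows in all. Those of Adcy6, Adcy8, Crem, Pde3b, Pde7a and Pkia were not used. The full element stood in 2 overlapping windows of 1 gene, Prkar1a, which hold the same copy of it. That is 3.39% of their windows, beside 1.79% of all 32851 windows. The core stood in 14 windows of 12 genes, 23.7% of their windows, beside 20.8% of all windows. A match describes these letters and not a bound site.

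Pkia, the alpha member of the heat-stable inhibitors that bind and export free catalytic subunits, held rank 3 of the 33 genes in replicate 1 and rank 6 in replicate 2. Pkia (chromosome 3, 7366669 to 7445366) stood at 204 TPM on 10077 counts in replicate 1 and 132 TPM on 4505 counts in replicate 2, a mean of 168 ± 51.4 (SD, n = 2). The TPM ratio of Pkia was 0.645 (0.622 to 0.668) and its centred log2 ratio -1.51. At 39.5% it had the lowest GC content of the 33 genes. Pkia exceeded Prkaca 12.2-fold in replicate 1 and 1.03-fold in replicate 2.

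The anchors, scaffold proteins that bind PKA regulatory subunits and place the kinase beside its targets, kept their proportions. Akap6, the anchor of the nuclear envelope of muscle and neurons (chromosome 12, 52699383 to 53155599), stood at 32.3 TPM on 4676 counts in replicate 1 and 37.7 TPM on 4114 counts in replicate 2, a mean of 34.98 ± 3.80 (SD, n = 2). For Akap6 the TPM ratio was 1.17 (1.12 to 1.22). Akap5, the postsynaptic anchor AKAP79/150, stood at 23.5 and 27.4 TPM, and Akap9, the Golgi and centrosome anchor, at 16.2 and 18.9 TPM.

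The centred log2 ratios were -0.67, -0.67 and -0.68, and 0 of the 3 anchors were called. Akap6 exceeded Akap5 1.37-fold in replicate 1 and 1.38-fold in replicate 2, and Akap9 1.99-fold and 2.00-fold. Their GC contents lay close together, from 43.8 to 45.1%.

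The transcription factors and their coactivator did not keep theirs. Crem, a CREB-related factor with activator and repressor isoforms, stood at 34.8 TPM on 605 counts in replicate 1 and 38.6 TPM on 391 counts in replicate 2, a mean of 36.7 ± 2.73 (SD, n = 2). The TPM ratio of Crem was 1.11 (0.976 to 1.26) and its centred log2 ratio -0.73. Creb1, the cAMP-responsive factor that PKA phosphorylates, stood at 22.3 and 18.1 TPM and was called lower, with a centred log2 ratio of -1.17 at 41.0% GC.

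Crtc1, the neuronal CREB coactivator that moves to the nucleus when dephosphorylated (chromosome 8, 70382355 to 70439579), had the highest ratio of the 33 genes. It stood at 1.25 TPM on 61 counts in replicate 1 and 47.3 TPM on 2663 counts in replicate 2. The TPM ratio was 37.9 (29.4 to 49.6) and the centred log2 ratio 3.54, at a GC content of 58.7%. Creb1 was thus 17.8 times Crtc1 in replicate 1 and 0.382 times in replicate 2, and Crem led the 3 genes in replicate 1 and Crtc1 in replicate 2.

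Rapgef4, which encodes Epac2, a cAMP-activated exchange factor for Rap that acts without PKA (chromosome 2, 71981240 to 72257474), was abundant in both libraries. It stood at 183 TPM on 9433 counts in replicate 1 and 293 TPM on 11612 counts in replicate 2, a mean of 238 ± 77.4 (SD, n = 2). The TPM ratio was 1.60 (1.55 to 1.64) and the centred log2 ratio -0.21, so it was not called. Rapgef4 held rank 4 of the 33 genes in replicate 1 and rank 3 in replicate 2.

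The deposited TPM intervals, whose confidence level no header states, overlapped between the libraries in 9 of the 33 genes (27.3%), beside 25.5% of all expressed genes. These were Prkacb, Prkar1a, Pde1c, Pde3b, Pde7a, Pde8a, Prkar2a, Akap9 and Crem, and they compare TPM with no centring. The order of the 33 genes by TPM had a Spearman rho of 0.66 between the libraries (n = 33 genes), beside 0.62 over all expressed genes. These are descriptions across genes that share both libraries.

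Across the 33 genes the centred log2 ratio had a Spearman rho of 0.92 with GC content (n = 33), beside 0.89 over the 14177 expressed genes with a known GC content. Its rho with the mean length of the gene's transcripts was 0.11. The level itself had a rho with GC content of -0.55 in replicate 1 and 0.15 in replicate 2. Within the leading coding transcript, available for 32 of the genes, the ratio had a rho of 0.85 with the GC content of the coding stretch and 0.81 with that after the stop codon. In 30 of the 33 genes the ratio lay within 1 (log2) of the median of all expressed genes in the same 5-point GC class, beside 79.9% of all expressed genes.

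The exceptions were Crtc1, Adcy9 and Prkaca, which lay 1.40, 1.31 and 1.26 above their class. Adcy9 (54.5% GC) and Prkaca (54.9% GC) stand at the upper edge of the 50 to 55% class, whose median was 0.72. The median of the next class was 2.15. Above the smooth GC trend Crtc1, Adcy9 and Prkaca lay 1.09, 0.69 and 0.52. By that trend Pde1b (0.96) and Adcy6 (0.75) lay further above it than Adcy9, and Pde4a (0.54) further than Prkaca. The largest distance below a class median was that of Adcy7, at -0.81, followed closely by Pde8a.

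**Figure D2:**
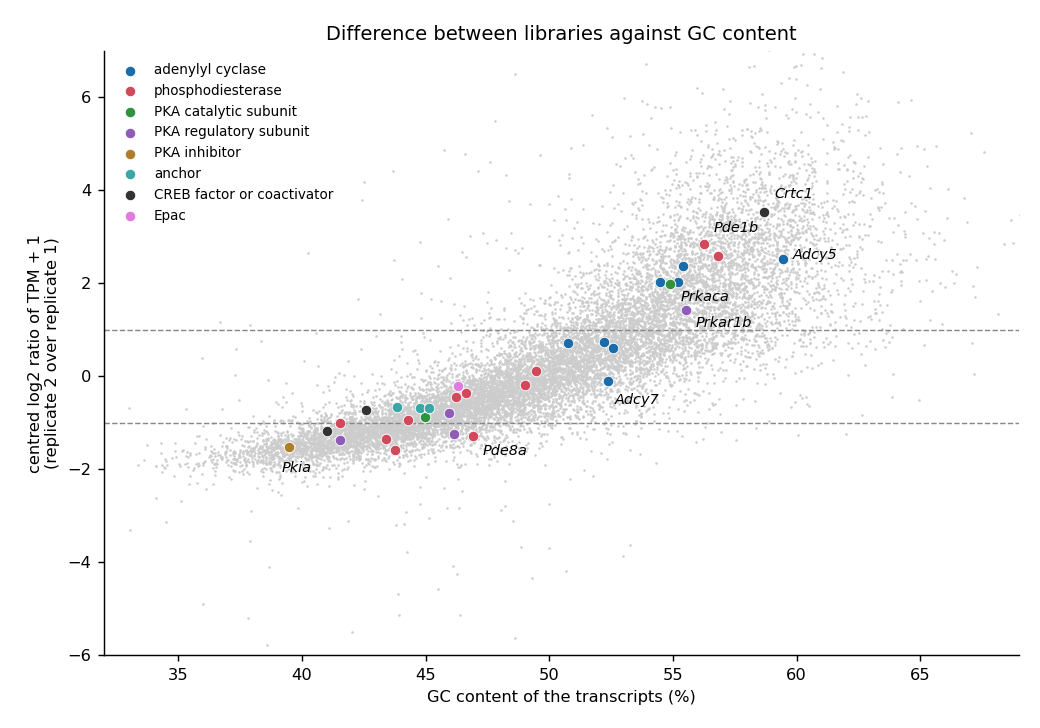
Centred log2 ratio of each of the 33 genes (coloured by family) against transcript GC content in percent, over all expressed genes in grey, with dashed lines at the 2-fold call and points beyond the axes not drawn. The 33 genes follow the rise of the grey cloud, from Pkia at 39.5% GC and -1.51 to Crtc1 at 58.7% GC and 3.54.

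The order of paralogs changed between libraries mainly where their GC contents lay apart. All pairs of matched genes within a family numbered 96, and 73 had the same order by TPM in both libraries. Of the 25 pairs within 2 points of GC content 25 kept their order, and the ratio of the pair moved 1.35-fold in the median. From 2 to 5 points 28 of 34 pairs kept it and from 5 to 10 points 15 of 23.

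At 10 points or more 5 of 14 kept their order, and the median move was 15.6-fold. Turned pairs included Adcy2 with Adcy5, Pde1a with Pde1b, Prkar1a with Prkar1b, and Creb1 and Crem with Crtc1. Pairs share genes, so these counts are a description.

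**Figure D3:**
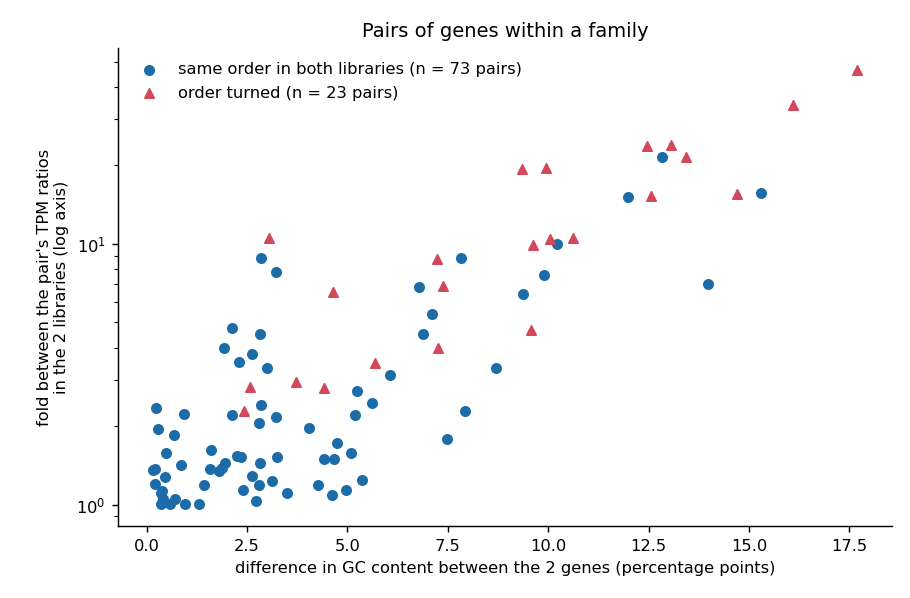
Each point is a pair of genes of the same family, with the difference in GC content in percentage points on the horizontal axis and the fold between the pair's TPM ratios in both libraries on a log axis. The 23 pairs whose order turned (triangles) start beyond 2 points of GC content, and the 25 pairs within 2 points kept their order (circles).

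The transcript tables give the share of a gene's TPM held by each transcript. In 13 of the 33 genes 1 transcript reached 10% of the gene in either library, and in the other 20 at least 2 did. Of these 20 genes 10 had the same leading transcript in both libraries. By posterior mean shares 12 did, and by counts in place of TPM 13. In 16 of the 20 the TPM-weighted GC content of the transcript mix was higher in replicate 2, and in 4 it was lower. No share over all genes was computed for these transcript counts. They describe the 20 genes and do not set them apart from other genes.

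Several of the changed leaders were short transcripts in replicate 1. Prkar1b was led in replicate 1 by ENSMUST00000148002.3, a transcript of 795 bases that held 55.7% of the gene there and 0.29% in replicate 2. By counts ENSMUST00000110889.3 (2457 bases) led there, with 1314 against 479 counts, and its share went from 41.1 to 1.26%. The longer ENSMUST00000026973.9 (2637 bases) held 3.17% and 88.7%. Prkar2a was led in replicate 1 by ENSMUST00000192068.1 of 599 bases at 56.2% against 21.4%, and in replicate 2 by ENSMUST00000035220.7 of 4965 bases at 78.6% against 43.6%. By counts ENSMUST00000035220.7 led Prkar2a in replicate 1 as well, with 1013 counts against 114.

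In Pde8a the 583-base ENSMUST00000128154.3 held 55.4% of the TPM in replicate 1, on 44.3 of the gene's 366 expected counts, and was listed at 0 in replicate 2. Its posterior mean share was 55.4% in replicate 1 and 4.33% in replicate 2. Crtc1 held 87.4% of its replicate 2 TPM in ENSMUST00000076615.5 of 5683 bases, which stood at 0.04% in replicate 1.

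Longer transcripts exchanged places as well. Prkar2b was led in replicate 1 by ENSMUST00000146865.1 (93.9% against 30.7%, 40.2% GC) and in replicate 2 by ENSMUST00000036497.11 (5.59% against 68.3%, 44.1% GC). Rapgef4 was led in both by ENSMUST00000090826.7, at 53.7% and 74.6%. Its second transcript in replicate 1, ENSMUST00000153887.3, held 32.9% there and 0.40% in replicate 2.

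Pde4b kept ENSMUST00000106908.4 as leader at 87.0% and 60.0%. Pde8b was led by ENSMUST00000162670.3 in replicate 1 (62.3% against 16.2%) and by ENSMUST00000162153.3 in replicate 2 (4.97% against 25.3%). The leader of Crem in replicate 1, ENSMUST00000140912.3, held 39.3% and then 0.34%. In Akap5 ENSMUST00000095610.4 held 48.2% and 48.8%, ENSMUST00000154078.2 held 51.6% and 31.0%, and ENSMUST00000172992.1 held 0.17% and 20.2%. These shares are estimates from reads that several transcripts share, and they have no error of their own in the tables.

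**Figure D4:**
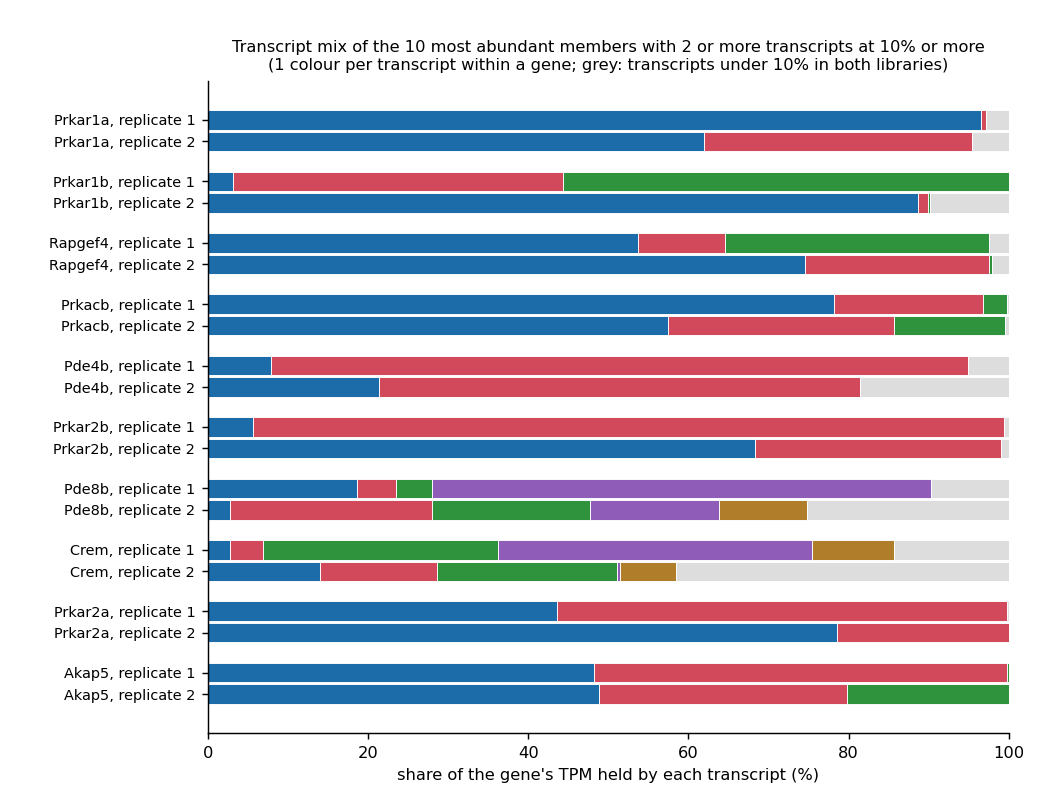
Share of each gene's TPM held by its transcripts, in percent, in replicate 1 (upper bar) and replicate 2 (lower bar) for the 10 most abundant genes with at least 2 transcripts at 10%, with 1 colour per transcript within a gene and grey for the rest. The leading colour differs between the bars of Prkar1b, Prkar2b, Pde8b, Crem, Prkar2a and Akap5.

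The calls of higher held over 9 scalings, whereas the calls of lower did not. These 9 include the reported one and leave out the removal of the GC trend. With that trend removed 1 of the 9 genes called higher stayed called. Without centring, and with the centre over all genes above 0, every ratio rises by a constant, so no call of higher could be lost there. In each of the 9 scalings 9 of the 9 genes called higher were called higher. Of the 8 called lower 7 stayed below 0 in each and 0 were called lower in each, the exception being Pde8a, which turned with library totals. The number called lower moved with the share of all genes so called.

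With TPM rescaled to genes outside the mitochondrial genome and its copies, 9 genes were called higher (background 35.0%) and 8 lower (22.3%). Counts scaled by TMM gave 9 higher (36.5%) and 9 lower (24.7%), and DESeq2 size factors gave 10 higher (37.2%) and 8 lower (23.2%). Counts scaled by library totals gave 12 higher (45.2%) and 2 lower (8.19%). None of these scalings sets the median over the expressed genes to 0, and they place 0 differently.

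Posterior mean TPM gave 11 higher (34.8%) and 1 lower (9.81%). The centre taken over all genes above 0 gave 12 higher (39.8%) and 2 lower (7.82%), and a pseudocount of 0.1 gave 9 higher (34.7%) and 10 lower (27.0%). At 3-fold in place of 2-fold, 8 genes were called higher (21.7%) and 0 lower (5.6%).

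**Figure D5:**
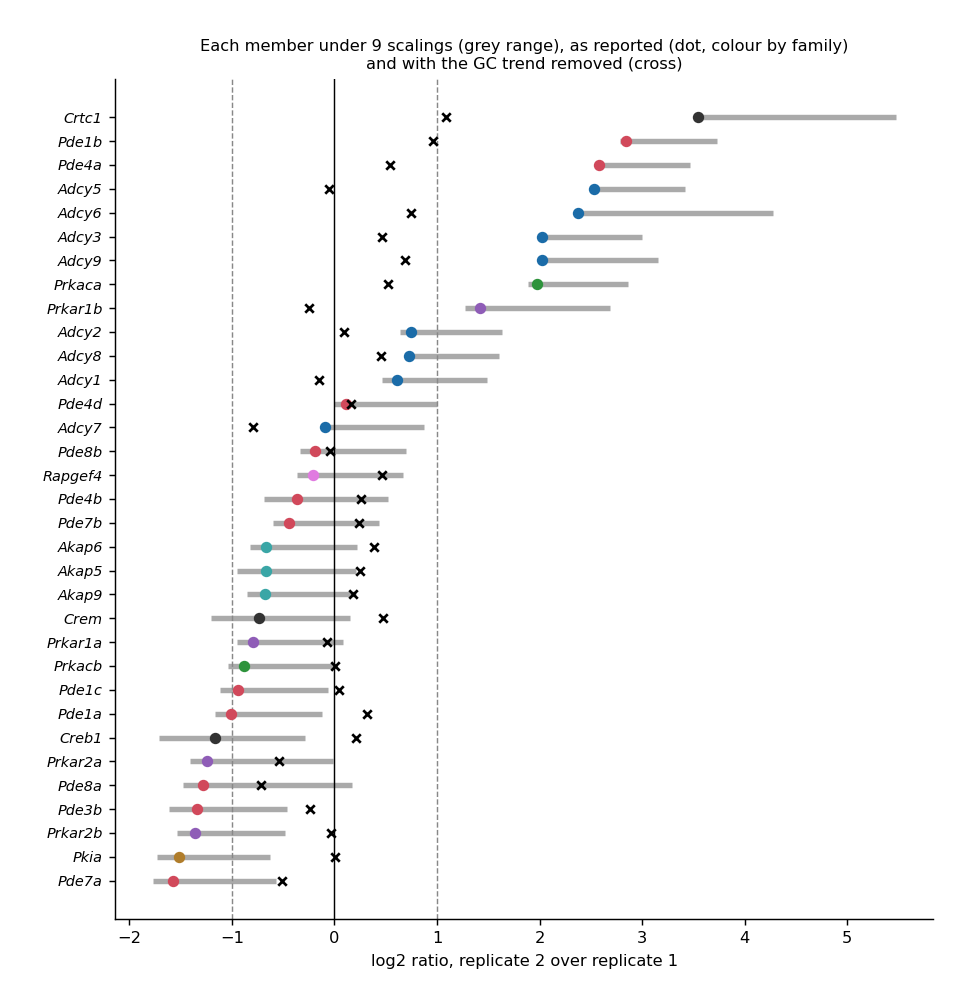
Log2 ratio of replicate 2 over replicate 1 for each of the 33 genes as reported (dot), over 9 scalings (grey range) and with the GC trend removed (cross), with dashed lines at 2-fold. The ranges of the 9 genes called higher stay beyond 2-fold, while those of the genes called lower reach inside it, and among the crosses Crtc1 alone lies beyond the line, at 1.09.

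Other genes of the pathway were taken from a list of 37, of which 32 averaged 1 TPM or more. Of these 6 were called higher and 6 lower in replicate 2, where the background shares are 30.4% and 22.1%. Of the 6 called higher Rapgef3, Adora2a and Htr6 passed the level filter on the strength of replicate 2 alone. Among the 7 G protein alpha subunits Gnas, the stimulatory subunit that activates cyclases, had the highest level at 497 and 1286 TPM (centred log2 ratio 0.49, 54.4% GC). The inhibitory subunit Gnai2 was called higher at 6.47 and 120 TPM (3.13, 56.4% GC), and its paralogs Gnai1 at 155 and 109 TPM (-1.38, 42.6% GC) and Gnai3 at 28.9 and 20.1 TPM (-1.39, 41.7% GC) were called lower.

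Among Gnai1, Gnai2 and Gnai3 the gene of highest GC content was the one called higher. Other listed genes of high GC content were called neither way. These included Gnaz (55.1% GC, centred log2 ratio 0.92), Pkig (57.1% GC, 0.71) and Adrb1 (58.8% GC, 0.27). Of the remaining phosphodiesterases Pde10a, the striatal dual-specificity enzyme, led at 34.5 and 61.6 TPM (centred log2 ratio -0.07), and Pde3a was called lower at 1.44 and 1.18 TPM (-1.05). Adcy4 led the remaining cyclases at 0.04 and 1.74 TPM on 2 and 62 counts, and neither of them reached a mean of 1 TPM. Among kinases and inhibitors Pkig led at 34.1 and 105 TPM (0.71), and the PKA-related kinase Prkx was called lower at 6.50 and 5.36 TPM (-1.12).

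Among 10 further anchors Akap11, which also binds the kinase GSK3, led at 67.96 and 50.96 TPM and was called lower (-1.29, 42.1% GC). Akap7 was likewise called lower at 46.6 and 31.3 TPM (-1.44, 41.9% GC), and the mitochondrial anchor Akap1 higher at 3.59 and 17.9 TPM (1.16, 53.5% GC). Ep300, a histone acetyltransferase that CREB recruits, had the highest mean of the further CREB factors and cofactors at 13.0 and 16.1 TPM (-0.60). The coactivator Crtc2 was called higher at 2.67 and 18.01 TPM (1.49, 53.6% GC), and so was Rapgef3, which encodes Epac1, at 0.71 and 18.2 TPM (2.61, 58.5% GC).

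Of 5 receptors that couple to cyclases, Drd1, the D1 dopamine receptor, had the highest mean at 17.6 and 21.1 TPM (-0.63). The adenosine receptor gene Adora2a was called higher at 0.65 and 26.7 TPM (3.19, 59.2% GC). Htr6, a serotonin receptor, was also called higher and was listed at 0 in replicate 1, against 2.74 TPM on 50 counts in replicate 2.

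Markers of brain cell types were present, though not all in both libraries. All 4 neuronal markers, all 4 of astrocytes and all 4 of oligodendrocytes reached 1 TPM in both, as did 3 of 4 of microglia and 2 of 3 of endothelium. Uncentred sums were 4581 and 3870 TPM for neuronal markers, 579 and 539 TPM for astrocytes and 2067 and 2425 TPM for oligodendrocytes. Microglial markers summed to 62.7 and 114 TPM and endothelial ones to 15.1 and 79.2 TPM, while 3 liver genes summed to 0.17 and 7.38 TPM. Of the liver genes Alb was called higher (centred log2 ratio 1.60, 47.5% GC), and Apoa1 and Serpina1a were called neither way. Alb stood at 0.11 TPM on 3 counts and 5.22 TPM on 105 counts, so it passed the level filter through replicate 2 alone. Of the endothelial genes Cldn5 was called higher, at 0.40 and 48.6 TPM, and Pecam1 and Flt1 were called neither way. Over all expressed genes the median uncentred log2 ratio was 0.88. Snap25 stood at 3457 and 2764 TPM.

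Of the 6 genes of striatal projection neurons reported here, 5 were called higher in replicate 2, where 30.4% of all expressed genes were. These were Ppp1r1b, Drd2, Adora2a, Penk and Rgs9, of 52.9 to 59.2% GC, and Drd1, of 45.7% GC, was called neither way. Drd2, at 0.36 and 19.8 TPM, and Adora2a, at 0.65 and 26.7 TPM, reached a mean of 1 TPM on the strength of replicate 2 alone. Penk, the enkephalin precursor, stood at 44.1 and 359 TPM and Ppp1r1b, the dopamine-regulated phosphatase inhibitor DARPP-32, at 11.1 and 322 TPM.

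Some markers of other brain cell types, of 53.9 to 60.5% GC, were called higher as well. Rbfox3 of neurons stood at 14.7 and 131 TPM, Aldh1l1 of astrocytes at 2.10 and 34.8 TPM and Cldn5 of endothelium at 0.40 and 48.6 TPM. Csf1r and Tmem119 of microglia stood at 2.89 and 36.7 TPM and at 0.64 and 17.3 TPM. Cldn5 and Tmem119 reached a mean of 1 TPM on the strength of replicate 2 alone, on 7 and 19 counts in replicate 1. From the same lists Snap25 (-1.21) and Map2 (-1.46) of neurons, Aqp4 (-1.39) and Slc1a2 (-1.08) of astrocytes and P2ry12 (-1.36) of microglia were called lower. Their GC contents were 38.5 to 45.5%. The remaining genes of these lists, and all 4 of oligodendrocytes, were called neither way. Among cAMP genes known from striatum Adcy5 (2.53) and Pde1b (2.84) were called higher, and Pde7b (-0.45), Pde10a (-0.07) and Gnal (-0.57) were not called. The part of striatal tissue in these values was not tested.

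The 4 cerebellar genes summed to 109 and 68.6 TPM. Nearly all of that was Calb1, at 96.1 and 52.45 TPM, and Zic1, at 12.9 and 15.7 TPM. The Purkinje cell marker Pcp2 was listed at 0 in replicate 1 and at 0.33 TPM in replicate 2, and the granule cell marker Gabra6 at 0.37 and 0.08 TPM.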

How the data were processed

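Expected counts, TPM and FPKM were deposited by the authors per gene and transcript, and so was the percent of a gene's TPM held by each transcript. Posterior means and interval bounds on TPM (a signal that is never negative) stand beside them, per the file headers; the deposited bounds bracket the posterior mean. The deposited listings name mm10 and GENCODE M4. The columns are those RSEM writes, and no source used here names the quantifier, the aligner or a version. FPKM and signal tracks were not used.

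GENCODE M21, on the same build, gave the symbols, positions and transcripts, matched by identifier without version. A gene's GC content is the TPM-weighted mean over its transcripts. The pseudocount was 1, the lowess fraction of the GC trend 0.2 (statsmodels 0.14.6) and the call 2-fold. Counts were rounded for TMM (edgeR 4.0.16) and size factors (DESeq2 1.42.0, R 4.3.3), used for scaling only, since no test can be fitted with 1 library per side. Other steps used Python 3.11.15, pandas 2.3.3, numpy 2.4.6 and scipy 1.17.1. The code for the calls was run on simulated counts that held no GC-linked shift between libraries. That run checks the code and cannot speak to the calls reported here. Ratio intervals are exact 95% intervals of the ratio of expected counts, multiplied by the TPM ratio over the count ratio. They take the transcript lengths and shares behind TPM as known. A count of 0 allows up to 3 counts, 1.64e-05% of replicate 1 and 1.68e-05% of replicate 2.

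The genes, lists and measures were chosen with earlier results of these data known. Named in full are the gene of highest mean TPM of each family and the 5 highest and 5 lowest centred ratios. Among transcripts these are the 10 genes of highest mean TPM with at least 2 transcripts at 10%. Pde8a and Crtc1 were added there after their values were seen. Among other pathway genes they are the highest of each class and any called, with Gnaz and Adrb1 added after their values were seen. One gene of the striatal marker list is not reported here, so no sum is given over that list.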

Additional observations from a re-analysis of the deposited data

How the results depend on the processing

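The count of genes called lower in replicate 2 (8) was 0 without centring, with the GC trend removed and at 3-fold, 1 with posterior mean TPM, and 2 with library totals or with the centre taken over all genes above 0. The count called higher (9) was 1 with the GC trend removed and 9 to 12 in the other scalings. The median log2 ratio (-0.36) was 0.52 without centring, 0.17 with library totals and 0.13 with the centre over all genes above 0, where the median over all expressed genes was 0.88, 0.73 and 0.49, so the set stayed below it. It was -0.51 with a pseudocount of 0.1, -0.0031 with posterior mean TPM (all genes 0.34) and 0.18 with the GC trend removed (all genes 0.0019). Of the 17 called genes, some turned direction with library totals (Pde8a, 0.17) and with the GC trend removed (Adcy5, -0.054; Pde1a, 0.32; Prkar1b, -0.25; Pkia, 0.0071; Creb1, 0.21). Of the 16 genes called neither way 4 changed sign with library totals, 10 with the GC trend removed and 11 without centring. Beyond the shift of all genes, the cause was not tested. Leaving out either library gives the other library's level, from 11.7 to 167 TPM for Pde1b, 42.6 to 121 TPM for Adcy1, and 215 to 216 TPM for Prkacb. Adding the Pde2a row, an alternative chosen after seeing the data, gave 10 higher, 8 lower and a median of -0.29; leading transcripts by counts was likewise added later. No paired analysis was possible because there is 1 group. Depth limited Adcy6, Crtc1 and Adcy7 most, at 46, 61 and 91 counts in replicate 1.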
